A study of Mus musculus with 3 samples.

Results

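A set of 10 genes of circulating carrier proteins were followed in the developing mouse kidney: the apolipoproteins Apoe, Apoa1, Apoa2, Apob, Apoc1 and Apoc2, and the plasma proteins Afp, Alb, Ttr and Trf. Members were chosen by gene symbol, with earlier log2 ratios of these same arrays known, so their values are given as a description with no test. All 10 had at least 1 array feature whose annotation gives that symbol alone, 13 features in all. Of these, 10 features had a value on all 3 arrays. They cover 9 of the 10 genes, among 19015 genes and unnamed features measured on every array, of which 14433 carry a gene symbol. Apob lacked a value on array 1 and enters no mean over 3 arrays.

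Fetal kidneys at 13.5 days post coitum (dpc) were compared with metanephroi at 11.5 dpc, the metanephros being the rudiment of the permanent kidney. Both came from CD1 embryos, were microdissected and pooled over the sexes. Amplified RNA of both ages was hybridised together on each of 3 two-colour arrays of mouse oligonucleotides, and the question is how transcript levels differ between the 2 ages. Channel 2 held the 13.5 dpc and channel 1 the 11.5 dpc material, and the labels give the dye order as red/green for arrays 1 and 2 and as green/red for array 3. The deposited values are log2 ratios whose likely direction is 11.5 over 13.5 dpc, because red/green is listed beside the ages in that order. A positive value is therefore read as lower at 13.5 dpc than at 11.5 dpc, and a negative one as higher at 13.5 dpc. Whether array 3 had been turned to match the others before deposit is not settled. Means of the measured members and of most named list genes are therefore given as deposited and with the sign of array 3 turned. Separate RNA extracts for the 3 arrays are not described, so the standard deviations (SD) below measure the spread between arrays, which may be technical.

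Apolipoproteins coat the lipid particles of blood. Apoa1 and Apoa2 are the main proteins of high-density lipoprotein, Apob is the fixed scaffold of very-low- and low-density particles, and Apoe and the C apolipoproteins move between particles. Apoe is the ligand that lets cells take remnants up through receptors of the low-density lipoprotein receptor family. Alpha-fetoprotein (Afp) and albumin (Alb) are related carriers. In the mouse, fetal liver secretes both and yolk sac secretes Afp. After birth Afp falls while Alb stays high. Transthyretin (Ttr) carries thyroxine and, through retinol-binding protein, retinol, and transferrin (Trf) carries iron. In the kidney the proteins of Alb, Trf, Ttr and Apoa1 are known as cargo that proximal tubule cells reclaim from the filtrate.

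On the 3 arrays as deposited the members did not move as a group. Apoe, Afp and Ttr were positive on all 3 arrays, that is, lower at 13.5 dpc, as were 16.8% of all rows. Alb and Apoc2 were negative on all 3, that is, higher at 13.5 dpc, as were 18.5% of all rows. The remaining 4, Apoa1, Apoa2, Apoc1 and Trf, had mixed signs. With array 3 turned, 0 members were positive and 1, Apoc1, was negative on all arrays, against 18.9% and 10.3% of all rows. None of the 9 was at least 2-fold away from 1 with 1 sign on every array, against 0.684% of all rows. Limma, fitted over all 19015 rows with Benjamini-Hochberg adjustment, called 0 rows, or 0% (1757 at an unadjusted p under 0.05). The ordinary one-sample test also called 0 (1829 unadjusted). The median of the 9 mean log2 ratios was 0.28, against -0.0084 over all rows, and -0.07 against 0.042 with array 3 turned. It was -0.20 on array 2 and 0.87 on array 3, and -0.05 without array 3.

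**Figure D1:**
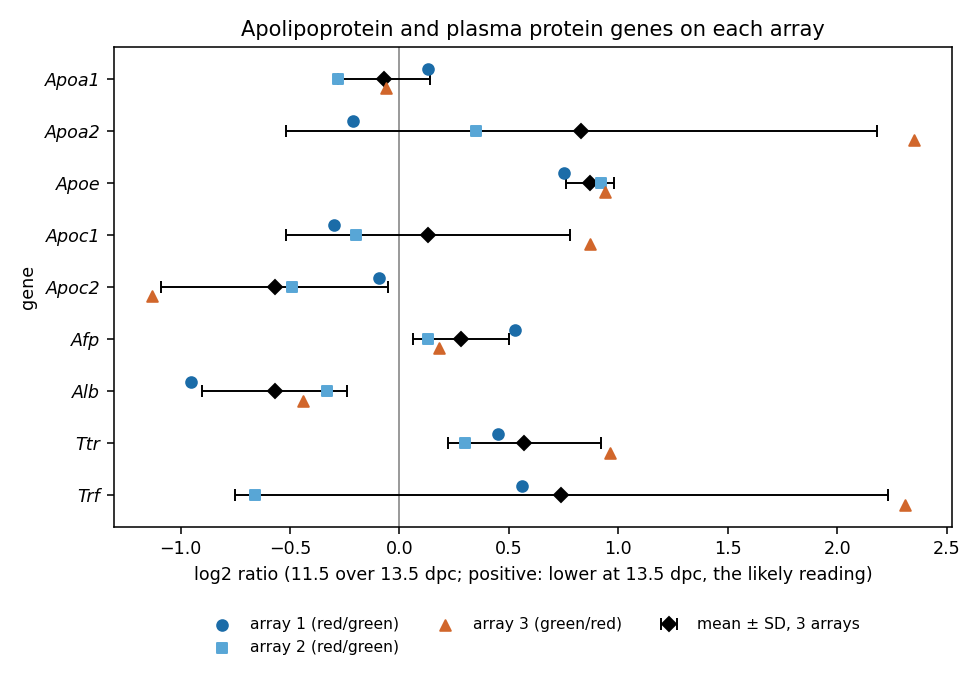
Log2 ratios (11.5 over 13.5 dpc, x axis) of the 9 genes with a value on every array (y axis). Coloured points are the single arrays, and diamonds with bars the mean ± SD over 3 arrays. With array 3 as deposited the Apoe points lie together between 0.75 and 0.94, whereas Apoa2 and Trf are spread over more than 2 log2 units.

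Among the high-density lipoprotein genes, Apoa1 had log2 ratios of 0.13, -0.28 and -0.063 on arrays 1, 2 and 3. These lie on both sides of 0, with a mean of -0.071 ± 0.21 (SD, n = 3 arrays), a size within the spread of the arrays, and -0.029 with array 3 turned. Apoa2 had -0.21, 0.35 and 2.35, and so was negative on array 1 and the highest of the members on array 3, just above Trf. Its mean of 0.83 ± 1.35 rested on that array: it was 0.067 without array 3 and -0.74 with array 3 turned. On arrays 1, 2 and 3 the difference of the log2 ratios of Apoa2 and Apoa1 was -0.35, 0.63 and 2.41, so that both genes could not be placed in 1 order.

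Apob, the scaffold protein of low-density particles, had a log2 ratio of 1.00 on array 2 and -0.50 on array 3. The 2 arrays that measured it thus disagreed in sign as deposited.

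Apoe had close values on the arrays as deposited. Its log2 ratios were 0.75, 0.92 and 0.94 on arrays 1, 2 and 3, all on the same side of 0 and within 0.20 of each other. The mean was 0.87 ± 0.11 (SD, n = 3 arrays), which corresponds to a 1.83-fold lower level at 13.5 dpc. Apoe stood at the percentiles 93.1, 94.2 and 93 of all rows on arrays 1, 2 and 3 as deposited, and at percentile 7.04 of array 3 turned. Leaving out 1 array at a time gave means from 0.83 to 0.93. Turning array 3 kept the sign of the mean but lowered it to 0.24 and widened the range of the 3 values to 1.87, so the closeness of the Apoe values depends on that orientation. In the turned values Apoa1 had a range of 0.41. At a 1.5-fold threshold on every array as deposited Apoe was the 1 member of 9 that qualified, as did 2.52% of all rows.

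The C apolipoproteins did not follow it. Apoc1, an inhibitor of lipoprotein uptake and of lipid-handling enzymes, had -0.30, -0.20 and 0.87, negative on arrays 1 and 2 and positive on array 3, with a mean of 0.13 ± 0.65. Apoc2, the cofactor that activates lipoprotein lipase, had -0.094, -0.49 and -1.13, all negative, with a mean of -0.57 ± 0.52. With array 3 turned the mean of Apoc2 was 0.18 and that of Apoc1 -0.46, so neither sign is settled.

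Apoe, Apoc1, Apoc4 and Apoc2 lie side by side on chromosome 7, with no other protein-coding gene between neighbours in the RefSeq annotation of GRCm38.p6. Within the same array, the log2 ratio of Apoe exceeded that of Apoc1 by 1.04, 1.12 and 0.071 on arrays 1, 2 and 3. It exceeded that of Apoc2 by 0.84, 1.41 and 2.08. The order of Apoe above both C genes thus held on each array as deposited, although by a margin of only 0.071 for Apoc1 on array 3. The difference between Apoe and Apoc2 was 1.44 ± 0.62 as deposited and 0.059 with array 3 turned, and that between Apoe and Apoc1 was 0.74 ± 0.58 and 0.70. The fourth gene of the cluster, Apoc4, had -0.54, 0.13 and -0.34, with signs on both sides of 0 and a mean of -0.25, or -0.022 with array 3 turned. In a second cluster, on chromosome 9, Apoa1 is followed by Apoc3, Apoa4 and Apoa5. Apoc3, which slows the lipolysis of triglyceride-rich particles, was negative on all 3 arrays at -0.12, -0.45 and -0.16, while Apoa4 (-0.36 ± 0.54) and Apoa5 (0.22 ± 0.26) had mixed signs. The means of Apoc3, Apoa4 and Apoa5 were -0.14, -0.45 and 0.27 with array 3 turned.

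Among 14432 other named rows, the 3 nearest to Apoe by Euclidean distance over the 3 log2 ratios as deposited were 1600027J07Rik (distance 0.0724), Tmem170 (0.144) and Fbxo3 (0.147). Their means were 0.88, 0.93 and 0.95. None is an apolipoprotein, and with 3 arrays such likeness describes only these values.

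Afp and Alb are neighbours on chromosome 5, with no protein-coding gene between them, and their log2 ratios had opposite signs on every array. The promoter windows of the pair are shown because the genes share a locus and a family yet lay on different sides of 0. Both are the 250 bases before the annotated start, from RefSeq on GRCm38.p6, plus strand, at chr5:90490464-90490713 for Afp and chr5:90460620-90460869 for Alb. Capitals mark matches, on either strand, to 3 short motifs: TATAAA (the TATA box), the letters CCAAT (the CCAAT box) and the letters GTTAAT (the half-site of hepatocyte nuclear factor 1, a liver and kidney transcription factor).
Afp: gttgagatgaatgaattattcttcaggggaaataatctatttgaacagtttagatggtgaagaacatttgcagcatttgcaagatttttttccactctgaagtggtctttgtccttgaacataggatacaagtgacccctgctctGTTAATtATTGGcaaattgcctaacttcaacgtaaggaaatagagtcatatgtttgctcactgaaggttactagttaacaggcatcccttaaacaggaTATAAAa
Alb: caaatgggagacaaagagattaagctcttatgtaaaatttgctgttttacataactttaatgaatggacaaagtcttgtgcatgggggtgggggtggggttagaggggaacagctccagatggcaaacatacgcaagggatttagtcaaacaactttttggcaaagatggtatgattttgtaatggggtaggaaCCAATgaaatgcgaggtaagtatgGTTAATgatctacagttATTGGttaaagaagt
The exact letters GTTAAT occur 1 time in each window, beginning 105 bases before the start of Afp and 32 bases before that of Alb. They occur in 6.43% of the 32851 promoter windows of the same length. Near matches were not searched, and gttaac in the Afp window and gttaaa in the Alb window are unmarked. The CCAAT letters occur 1 time for Afp and 2 times for Alb, and in 33.8% of all windows. TATAAA begins 7 bases before the annotated start of Afp, is not in the Alb window, and occurs in 12.4% of all windows. Each window stops at the annotated start, so a match beyond it would be missed. The Alb window thus does not show that the gene lacks a TATA box. No printed matches overlap. Windows were found for 7 of the 10 members, 10 windows in all, because Apoe has 3 annotated starts and Apoa2 has 2. TATAAA was in a window of 4 of these 7 genes and CCAAT in a window of 3. GTTAAT was also in a window of 4, namely Afp, Alb, Apoc2 and Apoe (1 of its 3 windows). These counts take any window of a gene, whereas the shares above are of single windows, so they are not directly comparable. Of the 4 genes with GTTAAT, Afp and Apoe had positive means and Alb a negative one under both orientations of array 3. The sign of Apoc2 is not settled. A match describes letters, not a bound site.

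Afp had log2 ratios of 0.53, 0.13 and 0.18 on arrays 1, 2 and 3, all positive but below 0.2 on 2 arrays. Its mean was 0.28 ± 0.22 (SD, n = 3 arrays), a 1.21-fold lower level at 13.5 dpc, and 0.16 with array 3 turned. Alb had -0.95, -0.33 and -0.44, all negative, with the lowest value of any member on array 1. Its mean was -0.57 ± 0.33, a 1.49-fold higher level at 13.5 dpc, and -0.28 with array 3 turned. Both signs held with each array left out, with means from 0.15 to 0.36 for Afp and from -0.70 to -0.39 for Alb. Afp exceeded Alb by 1.48, 0.46 and 0.62 log2 units on the 3 arrays as deposited, with a mean difference of 0.85 ± 0.55. With array 3 turned the order on that array reversed, with Afp at -0.18 and Alb at 0.44. The mean difference over 3 arrays was then 0.44. The difference is not affected by where an array is centred, since both genes shift together. Afm, the albumin family gene next to Afp, had -0.87, 1.27 and 0.087 and followed neither.

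Ttr had log2 ratios of 0.45, 0.30 and 0.96, all positive and highest on array 3. Its mean was 0.57 ± 0.35 (SD, n = 3 arrays), a 1.48-fold lower level at 13.5 dpc. With array 3 turned the mean was -0.07, so the sign of Ttr over 3 arrays depends on that orientation, while arrays 1 and 2 alone gave 0.37. Rbp4, the retinol-binding protein that travels bound to transthyretin, had -0.38, 0.84 and 0.073, and Stra6, its receptor, had 0.32, 0.15 and -0.11. Neither had 1 sign on all arrays.

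Trf is the member with several features, 4 in all, of which 2 had a value on every array. The second feature had 0.84, 0.61 and -0.37 on arrays 1, 2 and 3. The third had 0.28, -1.93 and 4.995, the largest value of any member feature. The first had -0.038 on array 2 and -0.72 on array 3, and the fourth had 1.52 on array 3 alone. On array 3 the 4 features of the gene thus ran from -0.72 to 4.995, so the features disagreed in sign on the same array. The average of the 2 complete features was 0.56, -0.66 and 2.31, with a mean of 0.74 ± 1.49. That mean was -0.05 without array 3, 1.44 without array 2 and -0.80 with array 3 turned, and no direction can be given for Trf.

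**Figure D2:**
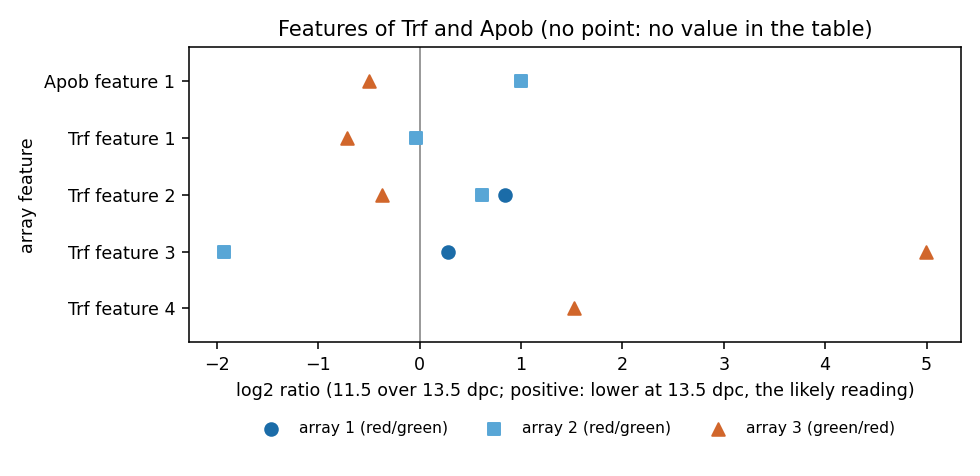
Log2 ratios (11.5 over 13.5 dpc, x axis) of the 4 features of Trf and the single feature of Apob (y axis), with a point for each array that has a value. On array 3 the Trf features run from -0.72 to 4.995.

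On array 3, 3 of the 9 members with a value on every array were at least 2-fold away from 1, Apoa2, Trf and Apoc2, and 13.4% of all rows were. On arrays 1 and 2, 0 and 0 of the 9 were, against 7.08% and 11.1% of all rows, while Apob, outside the 9, was at 1.00 on array 2. The range of the members was 1.69 and 1.58 log2 units on arrays 1 and 2 and 3.48 on array 3. Arrays 1 and 2, which share a dye order, gave 6 of the 9 members the same sign, as for 64.5% of all rows. With array 3 as deposited, arrays 1 and 3 gave 6 of the 9 the same sign, against 54.9% of all rows, and arrays 2 and 3 gave 7, against 51.2%. With array 3 turned these were 3 of the 9, against 45.1%, and 2 of the 9, against 48.8%. Across all rows the SD of the log2 ratios was 0.56, 0.75 and 0.93 on arrays 1, 2 and 3. As deposited, Pearson's correlation was 0.27 between arrays 1 and 2, 0.12 between 1 and 3, and -0.12 between 2 and 3. By rank (Spearman) the same correlations were 0.36, 0.13 and 0.001. Genes are not independent replicates, and these correlations are given as a description.

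The other genes of lipid transport and plasma were then read from lists, each beside the median over all rows of -0.0084 and beside 16.8% of rows positive and 18.5% negative on all arrays. The counts are with array 3 as deposited; with it turned the median over all rows was 0.042. Of 12 measured further apolipoproteins, 2 were positive and 2 negative on all arrays, with a median of -0.12, or -0.0096 with array 3 turned. Clu, also called apolipoprotein J, a secreted chaperone of many epithelia, stood apart from them. It had -1.26, -1.74 and -2.17, the single gene of the list at least 2-fold on every array, and a mean of -1.72 ± 0.46, 3.3-fold higher at 13.5 dpc. The mean of Clu was -0.28 with array 3 turned. Apod had 0.61 ± 0.65 and Apom, a carrier of sphingosine-1-phosphate on high-density lipoprotein, had 0.43 ± 0.39, both positive on all arrays, and 0.44 and 0.41 with array 3 turned.

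Of 14 measured genes of lipoprotein assembly, enzymes and transporters, 2 were positive and 4 negative on all arrays, with a median of 0.075, or -0.027 with array 3 turned. The positive genes were Lcat (0.33 ± 0.25), the enzyme that esterifies cholesterol on high-density lipoprotein, and the lipid transporter Abca7 (0.18 ± 0.17), with means of 0.28 and -0.06 when array 3 was turned. The 4 negative genes were P4hb (-0.49 ± 0.24) and Mttp (-0.20 ± 0.084), the subunits of the transfer protein that loads lipid on Apob, Apobec1 (-0.36 ± 0.058), the enzyme that edits Apob mRNA, and Gpihbp1 (-0.39 ± 0.11), the capillary anchor of lipoprotein lipase. None of these reached 2-fold on every array. The means of P4hb, Mttp, Apobec1 and Gpihbp1 were -0.093, -0.059, -0.16 and -0.13 with array 3 turned.

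Of 16 measured receptors and adaptors for lipoproteins and plasma proteins, 4 were positive and 2 negative on all arrays, with a median of -0.0059, or 0.088 with array 3 turned. The positive ones were Lrpap1, the chaperone of the receptor family, at 0.70 ± 0.32, Lrp5 at 0.47 ± 0.12, the endocytic adaptor Dab2 at 0.43 ± 0.48 and the transferrin receptor Tfrc at 0.31 ± 0.24. The negative ones were Lrp1, a receptor for Apoe, at -0.38 ± 0.22 and Dab1 at -0.28 ± 0.06. Under the turn of array 3, Lrpap1, Lrp5 and Dab1 kept their signs at 0.19, 0.19 and -0.086, whereas the means of Dab2, Tfrc and Lrp1 changed sign to -0.23, -0.042 and 0.033. Megalin (Lrp2) and cubilin (Cubn), which take up albumin, transferrin and apolipoproteins in the proximal tubule, had mixed signs, with -0.34 ± 0.60 and -0.081 ± 1.01, and with means of -0.02 and -0.80 when array 3 was turned. Of 18 measured genes of iron handling, 5 were positive and 2 negative on all arrays, with a median of 0.13, or 0.018 with array 3 turned. The iron exporter Slc40a1 had 0.47 ± 0.33 and the iron-sensing aconitase Aco1 had -0.43 ± 0.24, and 0.28 and -0.30 with array 3 turned.

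Markers of tissues that could supply such transcripts were read beside the members. Of 27 measured plasma proteins of liver and yolk sac other than the members, 2 were positive and 2 negative on all arrays, with a median of 0.0089, or 0.071 with array 3 turned. Serpinc1, the gene of antithrombin, had 0.51 ± 0.35 and Fgb, of fibrinogen, had 0.11, 0.54 and 4.74. On the negative side Fetub had -0.39, -0.28 and -1.57. The mean of Serpinc1 was 0.19 with array 3 turned. Those of Fgb and Fetub changed sign, to -1.36 against 1.80 as deposited and to 0.30 against -0.75. The other 23 had mixed signs, some with a wide spread. Among them Fga, of another fibrinogen chain, had 1.23, 1.76 and -1.48, and Hrg had -0.23, -3.25 and 3.61. The means of Fga and Hrg were 0.50 and 0.041, and 1.49 and -2.36 with array 3 turned. Of 14 measured hepatocyte and hepatoblast genes, 1 was positive and 2 negative on all arrays, with a median of -0.056, or -0.0048 with array 3 turned. Dlk1, which hepatoblasts share with many fetal tissues, was the 1 at least 2-fold on every array (-1.55 ± 0.19). The hepatocyte receptor Asgr1 had 0.19 ± 0.12. The means of Dlk1 and Asgr1 were -0.41 and 0.035 with array 3 turned. Among the 11 of this list with mixed signs, Tdo2 had -0.62, -3.59 and 4.93 and Fabp1 had -0.63, -2.45 and 0.49. The means of Tdo2 and Fabp1 were 0.24 and -0.86, and -3.05 and -1.19 with array 3 turned. Of 20 measured liver-enriched transcription factors, 4 were positive and 2 negative, with a median of -0.012, or 0.063 with array 3 turned. Foxa2, an endoderm factor, had 1.18, 1.23 and 0.70, all positive, Nr2f1 had 0.40 ± 0.21 and Cebpb had -0.41 ± 0.37. Hnf4a, which drives many apolipoprotein genes in liver and is also active in proximal tubule, had 0.27, -0.57 and 1.09. With array 3 turned the means of Foxa2 and Nr2f1 were 0.57 and 0.23, while that of Cebpb changed sign to 0.14 and that of Hnf4a to -0.47, against 0.26 as deposited.

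Of 12 measured genes of macrophages, cells in which Apoe is abundant, 4 were positive and 2 negative on all arrays. Their median was 0.076, or 0.09 with array 3 turned. Any value above 0 counts as positive, and some lay almost at 0. Cd68 had 3e-07 on array 1, and Tyrobp had 0.038 and 0.041 on arrays 1 and 2. Fcer1g had 0.33 ± 0.16 and Aif1 0.28 ± 0.17, while Cx3cr1 had -0.086, -3.10 and -2.14 and Itgam had -0.75 ± 0.65. The means of Fcer1g, Aif1 and Cx3cr1 were 0.17, 0.12 and -0.35 with array 3 turned, and that of Itgam changed sign to 0.13. Of 12 measured erythroid genes, 9 were positive and 0 negative on all arrays, with a median of 1.09, or 0.34 with array 3 turned. Of the 9, 4 were at least 2-fold on each array (Hbb-bh1, Ermap, Klf1 and Rhd). The other 3 of the list had mixed signs. Among them Gata1 had -1.54, -0.72 and 0.059 and Slc4a1 had -0.70, -0.34 and 0.091. Their means were negative at -0.73 and -0.31, and -0.77 and -0.38 with array 3 turned. Of 12 measured genes of the kidney rudiment itself, 2 were positive and 8 negative on all arrays, with a median of -0.27, or -0.10 with array 3 turned, and the epithelial cadherin Cdh16 at least 2-fold on each. The part of any of these tissues in the values of the members was not tested. A ratio does not show whether a marker is present or absent, and in whole tissue fewer cells of a type and less RNA per cell cannot be told apart.

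**Figure D3:**
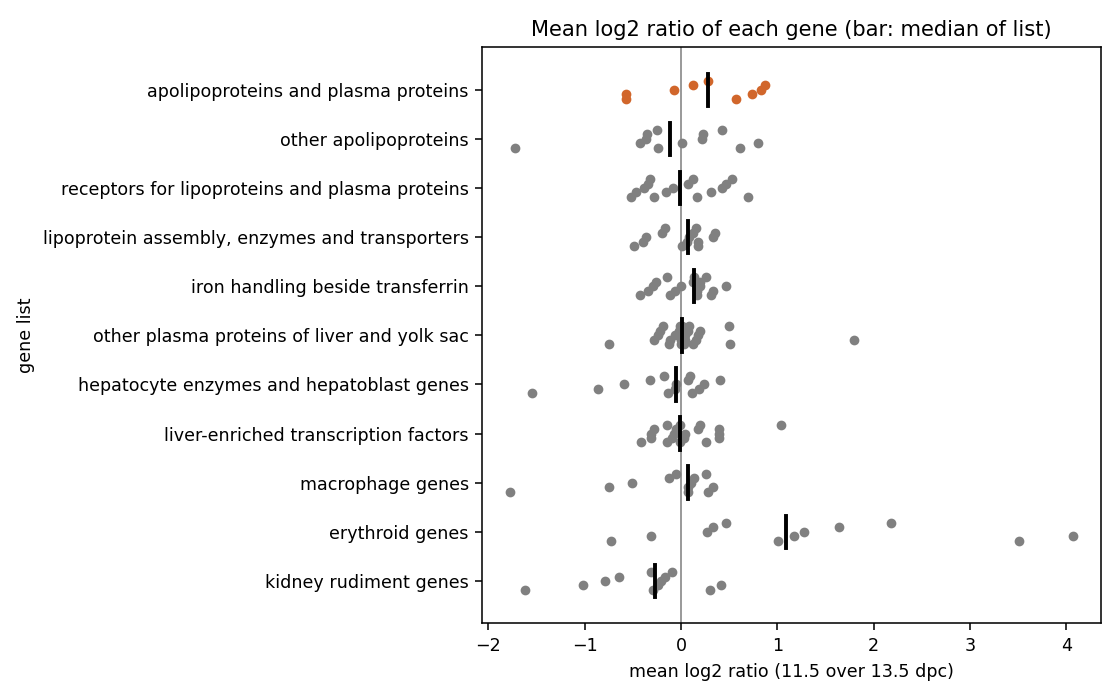
Mean log2 ratio over 3 arrays (11.5 over 13.5 dpc, x axis) of each measured gene, by list (y axis), with a vertical bar at the median of each list. The 9 apolipoprotein and plasma protein genes, in orange, run from -0.57 to 0.87, and the erythroid median is 1.09, all with array 3 as deposited.

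With 1 array turned or left out, some members kept a sign and others did not. The signs of the means of Apoe, Afp and Alb were kept under each of these settings. Apoc2 and Ttr kept theirs with any array left out but not with array 3 turned. Apoa2 was positive with any array left out and negative with array 3 turned, while Apoa1, Apoc1 and Trf changed sign when 1 of the arrays was left out.

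**Figure D4:**
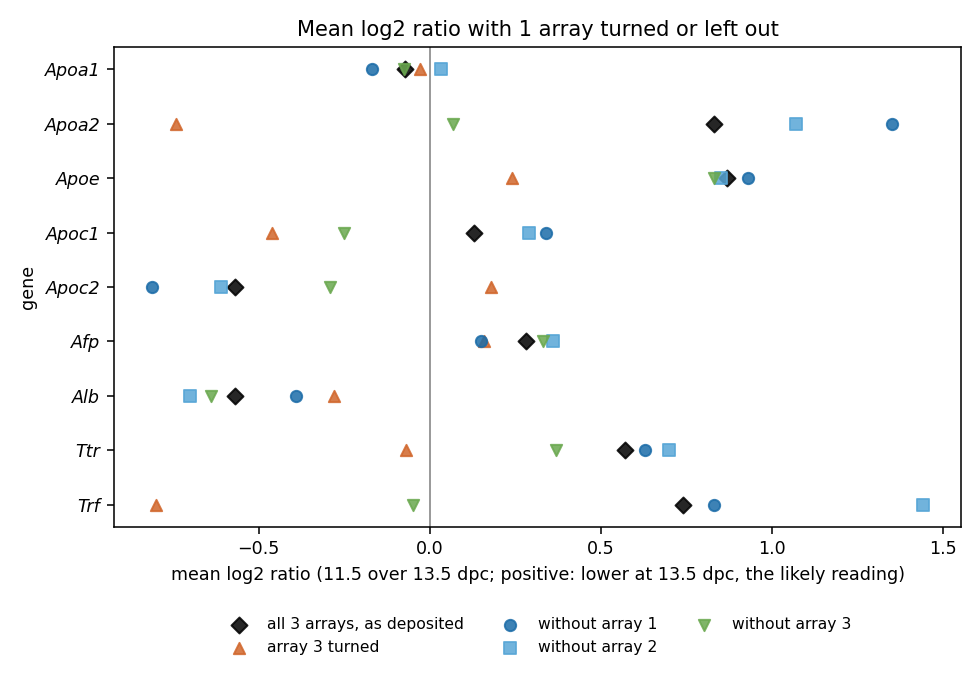
Mean log2 ratio of each member (y axis) with all 3 arrays as deposited, with array 3 turned, and with each array left out (x axis, 11.5 over 13.5 dpc). Apoe runs from 0.24 to 0.93 and Alb from -0.70 to -0.28, whereas Trf runs from -0.80 to 1.44.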

How the data were processed

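The authors deposited normalized log2 ratios, 1 per feature and array. The base was taken from the values: 2 to the power of a value was a whole multiple of 0.001, within 0.02 of a step, for 100% of values between -3 and 2 (4.42% with e, 4.26% with 10). Per the labels, images were read with ImaGene 5.5; both a print-tip loess and a Lowess fit are named, without saying which made these values. Dim or saturated spots could not be marked, as intensities were not analysed here.

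Of 22702 features, 883 controls or blanks were left out. Features with 1 annotated symbol were named (16656 of 21819, with 137 having several and 5026 none), with Entrez identifiers of 15970 found in the GRCm38.p6 table. Arrays 1, 2 and 3 held 20601, 21274 and 21563 valued gene features. Features valued on all arrays were averaged by symbol, with array 3 as deposited. Limma 3.58.1 (R 4.3.3) tested means against 0 over all rows, two-sided, at an adjusted p of 0.05. A run on simulated data checked the code only. The 3 arrays limit the precision of the fit, so 0 calls do not show that no row changed. Members and lists were chosen with earlier results of these data known. By rule, all 10 members were named, and from each list the genes at least 2-fold on every array or otherwise up to 4 with 1 sign and the largest means. Genes named outside this rule were added after their values were seen. Examples are Tfrc, Mttp, Abca7, Dab1, Lrp2, Cubn, Hnf4a, Rbp4, Afm, Gata1, Slc4a1, Fga, Hrg, Tdo2, Fabp1, Cd68 and Tyrobp.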

Additional observations from a re-analysis of the deposited data

How the results depend on the processing

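Limma called 0 rows under each alternative tried, with 736 to 2669 rows at an unadjusted p under 0.05. No member was 2-fold on every array with array 3 turned, with any array left out, or after centring or scaling. At 1.5-fold there was 1, Apoe. The median of the 9 members ran from -0.05 to 0.36 with 1 array left out and was -0.07 with array 3 turned. That turn changed the sign of 5 of the 9 member means, among them Apoc2 (0.18) and Ttr (-0.07), which otherwise had 1 sign on all arrays. Median centring, with or without scaling, changed none of the 9 signs, and subtracting a running median over neighbouring features changed 1, that of Apoa1 (0.057). With features valued on 2 or more arrays Trf had 0.47, and its 2 complete features alone had 0.36 and 1.11. Among the lists, turning array 3 moved the iron median to 0.018 and the erythroid median to 0.34. With 1 array left out the iron median ran from 0.043 to 0.17, the hepatocyte median from -0.055 to 0.0087 and the macrophage median from -0.0063 to 0.11; the running median gave 0.19 for macrophage genes. The cause of these shifts was not tested. Each array carries both ages, so the test of the ratio against 0 is already paired, and no further pairing was possible. Without spot intensities, how far signal over background limits these ratios is unknown.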
